A study of Mus musculus with 2 samples.

Results

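Undifferentiated spermatogonia are the mitotic male germ cells that include the spermatogonial stem cells. The 10 genes examined here are used as markers or regulators of these cells and were chosen by name: *Nanos2*, *Nanos3*, *Neurog3*, *Zbtb16*, *Gfra1*, *Ret*, *Id4*, *Lin28a*, *Sall4* and *Etv5*. All 10 were found among the 39695 gene entries of each library, and all 10 were among the 14831 genes whose RPKM (reads per kilobase of gene and 1000000 counted reads) averaged at least 1 over the libraries. RNA had been extracted from whole testes at postnatal day 9 (P9), and 1 library was made for each genotype. The control testes came from 9-day-old males with a floxed and a deleted *Bcas2* allele and no Cre. The other library came from Bcas2F/-;Vasa-Cre males of the same age (written Bcas2F/-;V-cre, as in the labels), in which Cre driven by the *Vasa* promoter removes the floxed allele in germ cells only, so both libraries carry the deleted allele in every cell. The labels give C57BL/6 as the strain of both, the methods describe a mixed background, and the number of mice behind each library is not given in the sources used here. BCAS2 is a core subunit of the Prp19 complex, which takes part in pre-mRNA splicing. The comparison asks how stem and progenitor genes were expressed in testes with the gene deleted in germ cells.

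Undifferentiated spermatogonia lie on the basement membrane of the seminiferous tubule. Somatic cells of the testis secrete GDNF, which acts on spermatogonia through the co-receptor GFRA1 and the receptor tyrosine kinase RET and maintains self-renewal, in part through the transcription factor ETV5. Cells with NANOS2 and ID4 are regarded as the most primitive, NEUROG3 marks progenitors that are leaving self-renewal, and retinoic acid then drives the change to KIT-positive differentiating spermatogonia, which later enter meiosis.

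The genes did not move together. *Nanos3* and *Sall4* were lower in *Bcas2F/-;V-cre* testes by more than 1.5-fold, a fold passed downward by 1.69% of all genes tested. *Zbtb16* and *Lin28a* were lower by a smaller amount, *Gfra1* and *Ret* were slightly lower, *Id4* and *Etv5* were slightly higher, and *Nanos2* and *Neurog3* were higher on few reads. Changes are log2 ratios, *Bcas2F/-;V-cre* divided by control, after 1 was added to each RPKM, and the added 1 makes the change of low genes look smaller. With 1 library per genotype nothing could be checked against replicate libraries, and p-values are not given. Intervals are 95% intervals from the reads behind each value, they cover counting error only, and intervals of a change refer to the log2 RPKM ratio without the added 1. The paper measured mRNA in P9 testes by real-time RT-PCR with replicates. It reported similar levels in both genotypes for *Nanos2*, *Neurog3*, *Kit*, *Dazl* and *Stra8*, among other spermatogonial genes. The meiotic genes *Dmc1*, *Sycp1*, *Sycp3* and *Smc1b* were lower there. In older testes, the paper's number of cells with PLZF, the protein of *Zbtb16*, did not differ significantly. At its lower RNA-seq threshold, the paper combined 1.5-fold with a P-value cut, which the 1.5-fold counts here do not use.

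Promoter sequences are shown for the genes that differed in opposite directions (*Nanos3* and *Lin28a* against *Nanos2* and *Neurog3*), so that their upstream regions can be compared. They are the 250 bases before the RefSeq start on GRCm38.p6, without bases that GENCODE M21 places in an exon, written 5′ to 3′ on the strand of the gene. Capitals mark E-boxes (CANNTG, bound by basic helix-loop-helix factors such as NEUROG3, while ID4 inhibits such factors without binding DNA) and GC boxes (GGGCGG), each searched on both strands. The stretches are chr8:84176553-84176802 on the minus strand for *Nanos3*, chr4:134018842-134019066 on the minus strand for *Lin28a*, chr7:18987274-18987399 on the plus strand for *Nanos2* and chr10:62132840-62133089 on the plus strand for *Neurog3*.
Nanos3: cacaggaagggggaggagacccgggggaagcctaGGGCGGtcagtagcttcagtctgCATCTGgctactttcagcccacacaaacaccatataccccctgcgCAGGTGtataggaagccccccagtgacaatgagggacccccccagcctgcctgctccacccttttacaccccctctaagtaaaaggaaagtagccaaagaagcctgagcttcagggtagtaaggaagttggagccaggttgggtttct
Lin28a: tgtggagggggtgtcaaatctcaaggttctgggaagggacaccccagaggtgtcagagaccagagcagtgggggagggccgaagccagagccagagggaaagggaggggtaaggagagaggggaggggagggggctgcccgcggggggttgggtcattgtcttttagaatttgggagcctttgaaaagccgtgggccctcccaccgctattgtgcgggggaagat
Nanos2: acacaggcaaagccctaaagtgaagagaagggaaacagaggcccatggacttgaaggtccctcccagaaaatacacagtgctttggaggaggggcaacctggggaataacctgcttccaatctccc
Neurog3: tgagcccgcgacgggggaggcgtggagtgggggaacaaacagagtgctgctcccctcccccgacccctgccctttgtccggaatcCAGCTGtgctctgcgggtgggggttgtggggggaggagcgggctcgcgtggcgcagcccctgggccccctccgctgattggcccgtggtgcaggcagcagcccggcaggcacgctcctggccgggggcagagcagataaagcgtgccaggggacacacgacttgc

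Over the whole 250 bases, *Nanos3* had 2 E-boxes and 1 GC box, *Neurog3* had 1 E-box and no GC box, and *Lin28a* and *Nanos2* had neither. Of 32851 RefSeq promoters of the same length, 66.2% held an E-box and 32.7% held a GC box. The G + C content was 56.4% for *Nanos3*, 61.2% for *Lin28a*, 50.8% for *Nanos2* and 71.2% for *Neurog3*, beside a median of 52.4% over all promoters. *Neurog3* held 18 CpG dinucleotides and *Nanos2* held 0, beside a median of 6 over all promoters. The *Nanos3* start used by RefSeq lies within the longer gene of GENCODE M21, and the last 124 bases of the *Nanos2* window lie in its annotated exon. Among the other genes, *Gfra1* had 3 E-boxes and no GC box, *Id4* had no E-box and 5 GC boxes, and the pair of *Etv5* starts had 2 and 0 E-boxes and 3 and 0 GC boxes. *Zbtb16*, *Ret* and *Sall4* had no entry. Matches are letters in a window and were not tested as binding sites.

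The libraries were of similar depth, 19918750 counted reads in control and 19331687 in *Bcas2F/-;V-cre* testes. The targeted gene *Bcas2* was 39.5 RPKM in control and 25.7 RPKM in *Bcas2F/-;V-cre* testes (1410 and 888 reads), at a log2 ratio of −0.60, interval from −0.75 to −0.50, the direction that the labels give. The median log2 ratio over the 14831 genes was 0.02, with 6873 genes lower and 7958 higher, the background for the counts of each list. The SD over genes was 0.34 at a mean RPKM of 1 to 10 and 0.18 at 10 or more. RNA came from whole testes, so fewer cells of a type and less RNA per cell cannot be told apart. Marker lists of cell types share some genes, such as *Sycp3* (germ cell and meiotic prophase) and *Dmrt1* (Sertoli cell and differentiating spermatogonia). The lists moved in different directions. Of 19 germ cell genes 17 were lower, with a summed RPKM of 1080 in control and 854 in *Bcas2F/-;V-cre* testes, whereas 13 of 16 Sertoli cell genes were higher, with 6907 and 7400. Their part in the results was not tested, and ratios relative to either list are given after the genes.

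The GDNF receptor genes differed least among the genes that were lower. *Gfra1* (ENSMUSG00000025089, chr19:58235604-58455909, minus strand, 11 exons) encodes the co-receptor that binds GDNF. It was 11.2 RPKM in control and 9.74 RPKM in *Bcas2F/-;V-cre* testes, on 459 and 387 reads, with the log2 ratio at −0.19. Its interval ran from −0.40 to −0.005, just short of 0, and with the shorter gene length that the values also allow (153 and 129 reads) it ran from −0.55 to 0.14. *Ret* (ENSMUSG00000030110, chr6:118151745-118197718, minus strand, 20 exons) encodes the kinase that carries the GDNF signal into the cell. Its level was 6.82 RPKM in control and 5.90 RPKM in *Bcas2F/-;V-cre* testes, on 911 and 765 reads, and the log2 ratio was −0.18 with an interval of −0.35 to −0.07. The receptor genes kept their proportion: scaled to the longest coding transcript of each, *Gfra1* was 0.592 times the level of *Ret* in control and 0.595 times in *Bcas2F/-;V-cre* testes, a log2 difference of 0.01 with an interval from −0.24 to 0.25.

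*Etv5* (ENSMUSG00000013089, chr16:22381309-22439719, minus strand, 13 exons), the target of GDNF and FGF signalling needed for stem cell maintenance, was on the other side. It was 25.8 RPKM in control and 29.7 RPKM in *Bcas2F/-;V-cre* testes, on 927 and 1036 reads, and the log2 ratio was 0.20 with an interval of 0.07 to 0.33. Among the 8670 genes at 10 RPKM or more on average, 90.3% had a lower ratio. The level of *Etv5* relative to *Ret*, each per longest coding transcript, was 1.40 in control and 1.86 in *Bcas2F/-;V-cre* testes, a log2 difference of 0.41 with an interval from 0.22 to 0.60. Counting error alone therefore does not cover the difference between the receptor and the target gene, while the spread between animals was not measured. In RNA of whole testes, the cell types behind the reads of *Etv5* and of *Ret* were not measured either. The processed pseudogene *Gm4798* of GENCODE M21 matches 1700 bases of *Etv5* at 98.6% identity and was not matched to any entry, so the assignment of reads that fit both is uncertain.

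Of the genes for RNA-binding proteins, *Nanos3* and *Lin28a* were lower and *Nanos2* was higher. *Nanos3* (ENSMUSG00000056155, chr8:84173731-84185217, minus strand, 2 exons in its longest coding transcript) encodes a translational regulator that protects primordial germ cells and is later found in spermatogonia. It was 15.2 RPKM in control and 7.16 RPKM in *Bcas2F/-;V-cre* testes, from 221 and 101 reads. The log2 ratio was −0.99, and the RPKM ratio of 0.471 had an interval from 0.368 to 0.599. The Poisson intervals of the levels, 13.3 to 17.3 and 5.83 to 8.70 RPKM, did not overlap, and 0.0923% of the 8670 genes in its class of mean RPKM had a lower ratio.

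*Nanos2* (ENSMUSG00000051965, chr7:18987400-18988962, plus strand, 1 exon), its paralogue that holds stem cells in the undifferentiated state, had the opposite direction at a much lower level. It was 1.01 RPKM in control and 1.83 RPKM in *Bcas2F/-;V-cre* testes, from only 29 and 51 reads. The log2 ratio was 0.49 with an interval from 0.17 to 1.57, and the Poisson intervals of the levels, 0.678 to 1.45 and 1.37 to 2.41 RPKM, overlapped. At a mean RPKM of 1 to 10, 95% of the 6161 genes had a lower ratio than *Nanos2*, so about 1 gene in 20 of that class was as high or higher. Per longest coding transcript, *Nanos3* was 16.3 times as abundant as *Nanos2* in control (interval 11 to 24.9) and 4.24 times in *Bcas2F/-;V-cre* testes (3.0 to 6.06). That proportion differed by −1.94 on the log2 scale, with an interval from −2.74 to −1.16. A transcript on the opposite strand, *Gm45058*, covers 766 bases of the *Nanos2* exon, and the strand setting of the read counting is not given in the sources used here.

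*Lin28a* (ENSMUSG00000050966, chr4:134003330-134018841, minus strand, 4 exons) encodes an RNA-binding protein that blocks maturation of let-7 microRNAs. It had the highest level of the 10 genes, as deposited and per longest coding transcript, with 96.6 RPKM in control and 75.5 RPKM in *Bcas2F/-;V-cre* testes, from 2338 and 1773 reads. The log2 ratio was −0.35 with an interval from −0.45 to −0.27, the narrowest of the 10. Of genes at 10 RPKM or more on average, 3.55% had a lower ratio. Its level relative to *Sall4*, per longest coding transcript, was 3.37 in control and 4.41 in *Bcas2F/-;V-cre* testes, a log2 difference of 0.39 with an interval from 0.21 to 0.56.

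Among the transcription factors, both zinc finger genes were lower. *Sall4* (ENSMUSG00000027547, chr2:168748332-168767943, minus strand, 4 exons) encodes a factor needed for spermatogonia to differentiate. It was 26.6 RPKM in control and 15.9 RPKM in *Bcas2F/-;V-cre* testes, from 1003 and 582 reads, and the Poisson intervals of the levels, 25.0 to 28.3 and 14.6 to 17.2 RPKM, did not overlap. The log2 ratio was −0.71 with an interval from −0.89 to −0.59, and 0.369% of the 8670 genes in its class had a lower ratio. *Zbtb16* (ENSMUSG00000066687, chr9:48654297-48836222, minus strand, 7 exons) encodes PLZF, the standard nuclear marker of undifferentiated spermatogonia. Its level was 15.5 RPKM in control and 11.6 RPKM in *Bcas2F/-;V-cre* testes, on 1571 and 1147 reads, and the log2 ratio was −0.38 with an interval of −0.52 to −0.30. Of its class, 2.76% of genes had a lower ratio. PLZF and SALL4 are both found in undifferentiated cells, yet their ratios differed by 0.33 on the log2 scale, with an interval from 0.14 to 0.52.

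*Neurog3* (ENSMUSG00000044312, chr10:62133090-62134763, plus strand, 2 exons), the helix-loop-helix gene of progenitors, was 2.41 RPKM in control and 3.73 RPKM in *Bcas2F/-;V-cre* testes, from 74 and 111 reads. The Poisson intervals of the levels, 1.89 to 3.03 and 3.07 to 4.49 RPKM, came close without overlapping. The log2 ratio was 0.47 with an interval from 0.19 to 1.07, and 94.6% of genes at 1 to 10 RPKM on average had a lower ratio. Its exons share 273 bases with *Fam241b* on the opposite strand, which was 29.0 RPKM in control and 28.3 RPKM in *Bcas2F/-;V-cre* testes. *Id4* (ENSMUSG00000021379, chr13:48261228-48266026, plus strand, 3 exons), the inhibitor of such factors used as a stem cell marker, was the gene whose interval held 0. It was 4.99 RPKM in control and 5.42 RPKM in *Bcas2F/-;V-cre* testes, on 330 and 348 reads, and the log2 ratio was 0.10 with an interval of −0.10 to 0.34. With the shorter gene length the reads were 165 and 174 and the interval ran from −0.20 to 0.44. A difference between the libraries was thus not detectable for *Id4* at this depth. *Zbtb16* was 3.58 times *Id4* in control and 2.48 times in *Bcas2F/-;V-cre* testes, per longest coding transcript, a log2 difference of −0.53 with an interval from −0.78 to −0.28.

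**Figure D1:**
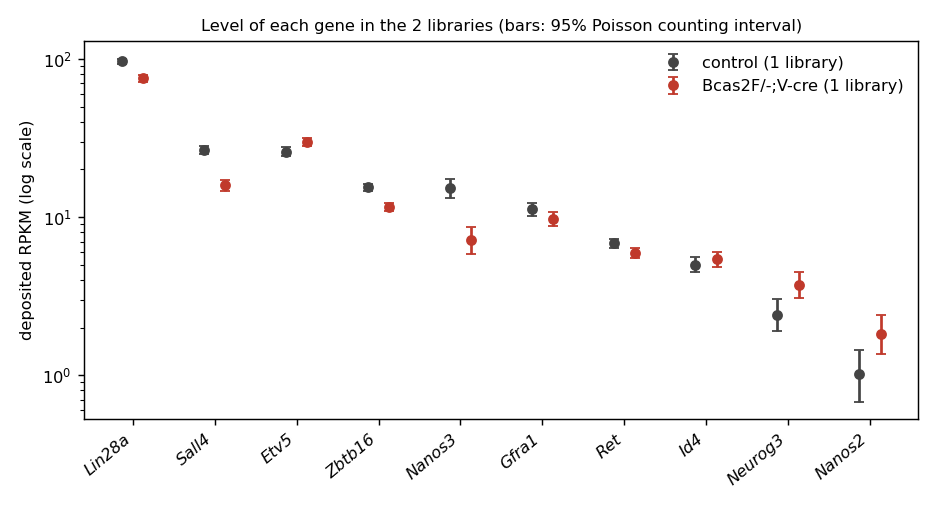
Deposited RPKM (log axis) of the 10 genes in the control and the *Bcas2F/-;V-cre* library, ordered by the deposited control value, which is not comparable between genes; each point is 1 library and bars are 95% Poisson counting intervals. *Nanos3* (15.2 and 7.16 RPKM) and *Sall4* (26.6 and 15.9 RPKM) have bars that do not overlap, nor do those of *Zbtb16*, *Lin28a*, *Ret*, *Etv5* and *Neurog3*, whereas the bars of *Gfra1*, *Id4* and *Nanos2* overlap. The share of all genes without overlap was not counted. With many reads the bars can part at a small difference, as for *Ret* (6.82 and 5.90 RPKM).

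**Figure D2:**
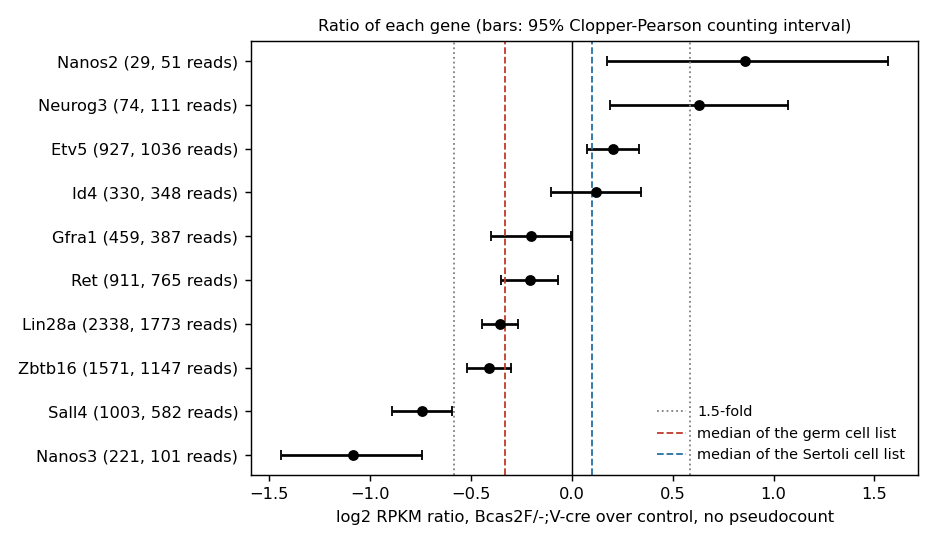
Log2 RPKM ratio of *Bcas2F/-;V-cre* over control without the added 1, with 95% Clopper-Pearson counting intervals as bars and the reads of the control and the *Bcas2F/-;V-cre* library beside each name. Dotted lines mark 1.5-fold and dashed lines the median log2 ratio of RPKM + 1 of the germ cell list (−0.33) and the Sertoli cell list (0.10). Intervals of 6 genes lie below 0, of 3 above 0, and that of *Id4* holds 0. The share over all genes was not counted. With many reads an interval can exclude 0 at a small ratio, as for *Clu* (0.12, interval from 0.10 to 0.14).

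In all, 6 of the 10 genes were lower and 4 higher, with a median log2 ratio of −0.18 beside 0.02 over all genes tested. Of the 14831 genes, 6873 were lower and 7958 higher. Past 1.5-fold, 2 of 10 were lower and 0 of 10 higher, beside 1.69% lower and 1.57% higher over the 14831 genes. The share depends on the level of the genes. At a mean RPKM of at least 10, both of the lower genes were among 6 of the 10, beside 0.761% of 8670 genes lower and 0.196% higher. At a mean RPKM of 1 to 10, 0 of 4 passed 1.5-fold either way, beside 3.0% of 6161 genes lower and 3.51% higher. Without the added 1, the RPKM ratios of *Nanos2* and *Neurog3* were 1.81 and 1.55, both past 1.5-fold, with intervals from 1.13 to 2.96 and from 1.14 to 2.10. On that scale 3.30% of the 14831 genes passed 1.5-fold lower and 3.34% higher, and of the 6161 genes at 1 to 10 RPKM 6.69% passed it lower and 7.74% higher.

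In the order of the ratios, many neighbours could not be separated by counting error. *Nanos3* and *Sall4* at the low end differed by 0.34 on the log2 scale, with an interval from −0.03 to 0.73. *Sall4* was separated from *Zbtb16*, and *Ret* from *Id4* by 0.33 with an interval from 0.06 to 0.59. The other neighbours (*Zbtb16* and *Lin28a*, *Lin28a* and *Gfra1*, *Gfra1* and *Ret*, *Id4* and *Etv5*, *Etv5* and *Neurog3*, *Neurog3* and *Nanos2*) had intervals that held 0.

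**Figure D3:**
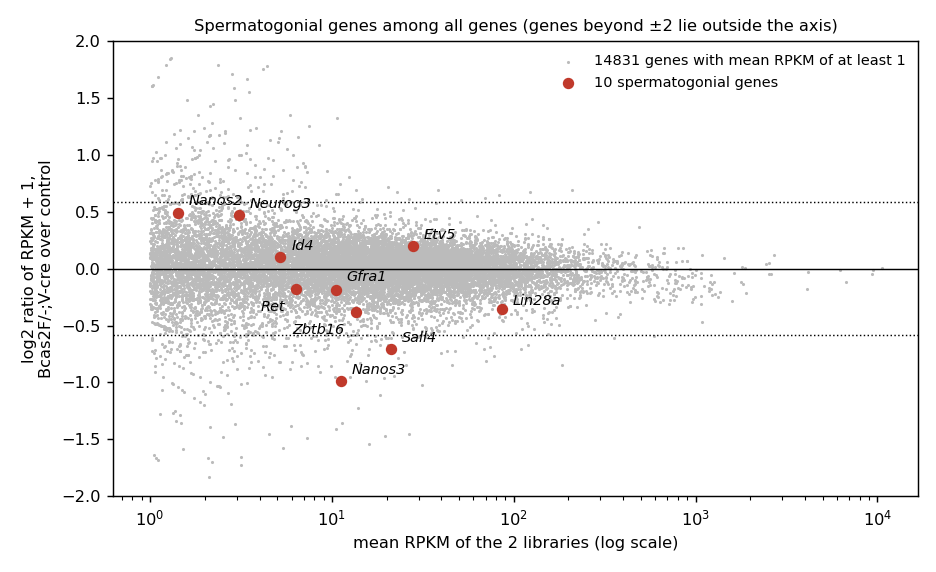
Log2 ratio of RPKM + 1 against mean RPKM (log axis) for 14831 genes in grey and the 10 spermatogonial genes in red, with dotted lines at 1.5-fold; 12 genes lie beyond the axis. *Nanos3* (−0.99) and *Sall4* (−0.71) lie at the lower edge of genes of their level, whereas *Nanos2* (0.49) and *Neurog3* (0.47) lie where low genes spread widely.

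The deposited RPKM values rest on gene lengths that can be far shorter than the main transcript (1215 bases for *Lin28a*, whose longest coding transcript has 3505). For *Ret* the length was longer instead (6703 bases against 5456), so scaling raises its level. The levels of the 10 genes were therefore put in order only after scaling to the longest coding transcript. On that scale, in control testes, *Lin28a* was first with 33.5 RPKM. *Zbtb16* with 15.4 and *Nanos3* with 15.2 followed and could not be separated. *Etv5* had 11.7, *Sall4* 9.93 and *Ret* 8.38 RPKM, each separated from the next. *Gfra1* with 4.97 and *Id4* with 4.30 could not be separated, and *Neurog3* with 2.41 and *Nanos2* with 0.931 were last. In *Bcas2F/-;V-cre* testes *Lin28a* remained first with 26.2 RPKM and *Nanos2* last with 1.69. *Etv5* was next with 13.5 RPKM, ahead of *Zbtb16* with 11.6. *Nanos3* with 7.16 RPKM could not be separated from *Ret* with 7.25 or *Sall4* with 5.93. *Id4* with 4.68, *Gfra1* with 4.31 and *Neurog3* with 3.73 were not separated from their neighbours in that run. *Etv5* thus came before *Zbtb16* and *Nanos3*, which it followed in control testes.

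Exon number, which bears on how much splicing a transcript needs, was set beside the changes. The 3 genes with 4 to 10 exons in the longest coding transcript (*Zbtb16*, *Lin28a* and *Sall4*) were lower, beside a median of −0.0006 over 5884 protein-coding genes of that class. Of the 3 genes with 11 or more exons, *Gfra1* and *Ret* were lower and *Etv5* higher, beside a median of 0.02 over 5403 genes. Of the 3 genes with 2 or 3 exons, *Nanos3* was lower and *Neurog3* and *Id4* were higher, beside a median of 0.008 over 1393 genes. *Nanos2*, with 1 exon, was higher, beside a median of 0.007 over 324 genes. RPKM per gene does not resolve splice forms.

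Of 16 genes of the GDNF pathway tested (ligands, co-receptors and targets), 6 were lower and 10 higher, with a median log2 ratio of 0.05, and 0 passed 1.5-fold on the RPKM + 1 scale. Without the added 1, 3 transcription factor genes passed it, all at low levels. *Pou3f1* was lower, at 4.42 and 2.68 RPKM, with an interval from −1.02 to −0.43. *Lhx1* (1.39 and 2.2 RPKM) and *T* (0.95 and 1.60 RPKM) were higher, and the interval of *T* held 0. *Gdnf*, the ligand made by somatic cells, was 5.55 RPKM in control and 7.80 RPKM in *Bcas2F/-;V-cre* testes, on 388 and 529 reads, and the log2 ratio was 0.43 with an interval of 0.30 to 0.68. With the deposited scaling the ligand was higher and its receptor genes *Gfra1* and *Ret* were slightly lower. *Nrtn*, which encodes neurturin, was 5.79 and 3.94 RPKM, a log2 ratio of −0.46 with an interval from −0.99 to −0.13. The ligand genes *Artn* and *Pspn* were below a mean of 1 RPKM. The co-receptor paralogue *Gfra4* was 4.71 and 4.65 RPKM, and *Gfra2* and *Gfra3* were near 1 RPKM, with intervals that held 0 for all 3. *Mycn*, with the highest mean RPKM of this list, was 31.4 and 33.6 RPKM, with an interval that held 0.

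Among 14 niche genes tested, which encode signals of the spermatogonial niche and receptors, 4 were lower and 10 higher, with a median log2 ratio of 0.17. Not all of these act on undifferentiated cells, since KIT marks differentiating spermatogonia. *Kitl*, which encodes the ligand of KIT and had the highest mean RPKM of the list, was 167 RPKM in control and 200 RPKM in *Bcas2F/-;V-cre* testes, a log2 ratio of 0.26. The gene past 1.5-fold was *Fgfr3*, an FGF receptor found in undifferentiated spermatogonia. It was 3.79 and 1.5 RPKM, on 187 and 72 reads, and the log2 ratio was −0.94 with an interval of −1.75 to −0.93.

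Of 23 other genes associated with undifferentiated spermatogonia, 14 were lower and 9 higher, 0 passed 1.5-fold on the RPKM + 1 scale, and the median log2 ratio was −0.06. Without the added 1, 2 passed 1.5-fold lower (*Pou3f1* and *Plvap*, which was 2.19 and 1.41 RPKM) and 2 higher (*Lhx1* and *T*). *Itgb1*, which encodes the β1 integrin that holds spermatogonia to the basement membrane and is also made by somatic cells, had the highest mean RPKM of the list, 306 in control and 333 in *Bcas2F/-;V-cre* testes. Of 12 paralogues tested, 6 were lower, 6 higher and 0 past 1.5-fold, with a median of 0.01.

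*Nanos1*, which is related to *Nanos2* and *Nanos3*, was 6.69 and 4.64 RPKM, a log2 ratio of −0.45 with an interval from −0.73 to −0.33. It thus had the direction of *Nanos3*, not of *Nanos2*. The log2 ratios of *Sall1* and *Sall2* were 0.08 and 0.23, against −0.71 for *Sall4*, and that of *Lin28b* was −0.11. For the relatives of *Id4*, ratios were −0.06 for *Id1*, 0.41 for *Id2* and 0.16 for *Id3*. *Etv1* and *Etv4* had log2 ratios of 0.11 and −0.32, on either side of 0. The negative ratios of *Lin28b*, *Id1* and *Etv4* were smaller than the shift of the germ cell list (−0.33), so their sign depends on the scaling. The ratio of *Sall1* was smaller than the shift of the Sertoli cell list (0.10), so its sign depends on the scaling too.

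Genes of the following germ cell stages were mostly lower. Of 12 genes of differentiating spermatogonia, 9 were lower and 4 were lower by more than 1.5-fold, with a median of −0.36. The 4 were *Stra8* (−0.61), the retinoic acid target needed for meiotic entry, *Dmrtb1* (−0.79), *Rhox13* (−0.95) and *Lmo1* (−0.86). *Dmrt1*, the gene with the highest deposited RPKM of this list and also a Sertoli cell gene, was 226 and 180 RPKM. Of 18 meiotic prophase genes 18 were lower, 5 of them by more than 1.5-fold, with a median of −0.38 and *Smc1b*, which encodes a meiotic cohesin subunit, at −1.11. The others past 1.5-fold were *Meioc* (−0.95), *Syce3* (−0.76), *Prdm9* (−0.76) and *Mei1* (−0.72). In the germ cell list, median −0.33, *Taf7l* had the highest deposited RPKM, 191 and 151 RPKM. *Tdrd9* (−0.60) and *Mov10l1* (−0.60), both of the piRNA pathway, were lower past 1.5-fold, and *Dppa3* was higher, with 1.19 and 4.01 RPKM from 18 and 59 reads and a log2 ratio of 1.20. *Nanos3* and *Sall4* were below the median of each of these 3 lists, and *Zbtb16* and *Lin28a* lay within 0.05 of each.

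Somatic lists had medians from −0.32 to 0.10. The Sertoli cell list had a median of 0.10, and *Clu*, with its highest deposited RPKM, was 2593 and 2813 RPKM, whereas *Rhox5*, a defining Sertoli cell gene, was listed at 0 in both libraries. Medians were 0.03 for 9 Leydig cell genes, of which *Cyp17a1* was higher past 1.5-fold (0.68), −0.05 for 7 peritubular myoid genes, −0.06 for 7 endothelial genes and −0.19 for 7 macrophage genes, of which *Cd14* was lower past 1.5-fold (−0.71). Of 6 red blood cell genes 5 were lower, with a median of −0.32, near that of the germ cell list (−0.33), and *Slc4a1* (−3.38) and *Hbb-bt* (−1.03) were lower past 1.5-fold.

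**Figure D4:**
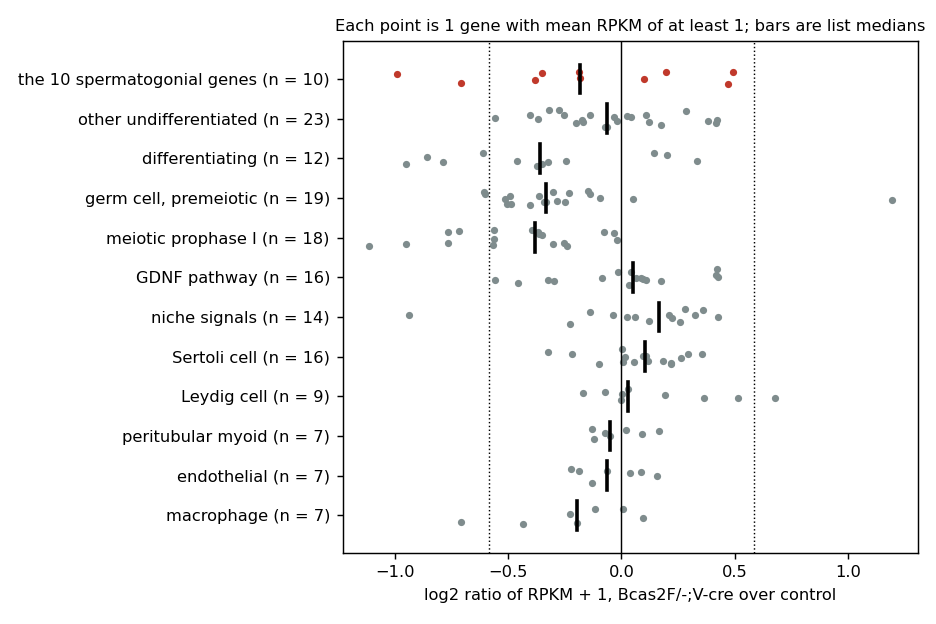
Log2 ratio of RPKM + 1 for each gene tested in the 10 spermatogonial genes (red) and in 11 gene lists (grey), with the median of each as a black bar and dotted lines at 1.5-fold. The 10 genes run from −0.99 to 0.49 around a median of −0.18, between the medians of the germ cell list (−0.33) and the Sertoli cell list (0.10).

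Since the germ cell and Sertoli cell lists moved apart, the 10 genes were also expressed relative to each. With the median of the germ cell list set to 0, a shift of −0.33, *Nanos3* was −0.66 and *Sall4* −0.37, while *Zbtb16* (−0.05) and *Lin28a* (−0.02) were near 0. On that scale *Gfra1* and *Ret* changed sign, to 0.15 each, and *Id4*, *Etv5*, *Neurog3* and *Nanos2* were 0.43, 0.53, 0.80 and 0.83. The median of the 10 genes was then 0.15, beside −0.03 for the differentiating list, −0.05 for the meiotic list and 0.27 for the other undifferentiated genes. With the median of the Sertoli cell list set to 0, a shift of 0.10, *Id4* was −0.002 and the other 9 genes kept their sign. *Nanos3* and *Sall4* were lower and *Etv5*, *Neurog3* and *Nanos2* higher under all 3 scalings. *Zbtb16* and *Lin28a* kept a negative sign, but relative to the germ cell list they were hardly changed (−0.05 and −0.02).

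**Figure D5:**
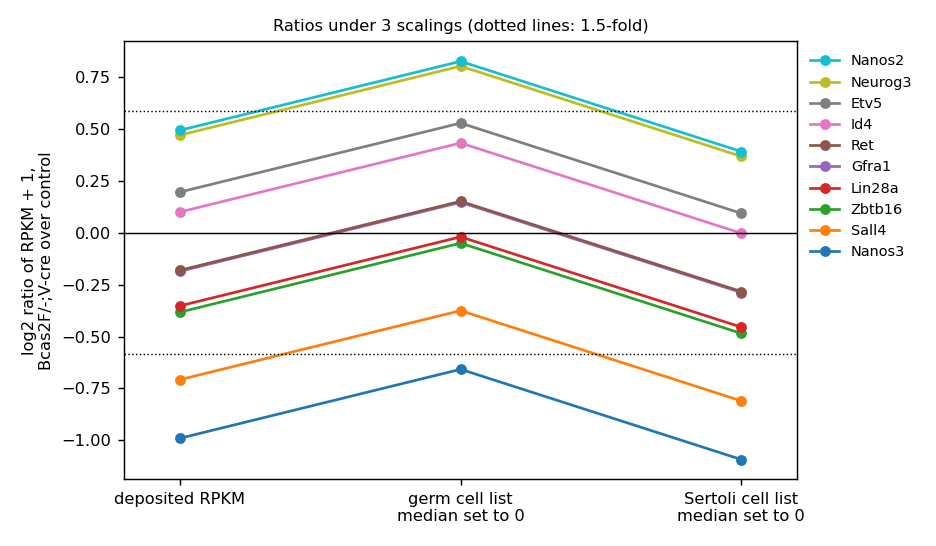
Log2 ratio of RPKM + 1 of the 10 genes with the deposited scaling and after the median of the germ cell or the Sertoli cell list was set to 0; each line is 1 gene and dotted lines mark 1.5-fold. *Nanos3* stays beyond 1.5-fold lower under all 3 scalings, *Sall4* does not with the germ cell list (−0.37), and *Gfra1* and *Ret* cross 0.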

How the data were processed

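Total RNA of whole P9 testes was sequenced with paired ends, 1 library per genotype. The authors removed adaptors and low-quality reads, aligned reads with TopHat2 2.0.9 (mm10, both from the submitters' processing notes), counted the reads of each gene with HTSeq and deposited the RPKM values, which adjust for depth and length, not RNA composition. The annotation release and the strand setting are not given in the sources used here. Symbols were matched by identifier to GENCODE M21 (37606 of 39695 entries). Log2 ratios of RPKM + 1 were computed for genes averaging at least 1 RPKM. Each read adds a fixed step to a gene's RPKM, so library sizes and gene lengths were recovered as whole numbers (lengths for 99.3% of 21201 genes above 0 in both libraries). The length matched GENCODE M21 within 1 base for 57.9% of the 21201. It did so for 6 of the 10 genes, not for *Nanos2*, *Zbtb16*, *Ret* and *Id4*. Where several lengths were allowed, that nearest to the mean transcript length was used. Clopper-Pearson, Poisson and odds ratio intervals (95%) were computed with scipy 1.17.1 in Python 3.11.15. On simulated data the recovery returned the exact reads of 97.6% of 21317 genes. All 10 genes are named; of the 13 gene lists, the text names the gene with the highest mean RPKM, those past 1.5-fold, GDNF ligands and co-receptors, and paralogues. *Gm4798*, *Gm45058* and *Fam241b*, which share sequence, and *Pou3f1*, *Plvap*, *Lhx1* and *T*, past 1.5-fold without the added 1, were named after their values were seen. The 10 genes and the lists were chosen with earlier results of these data known. Alternatives were pseudocounts of 0.1 and 0.01, 4 other scalings, other filters and, chosen after seeing the data, the longest coding transcript as gene length.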

Additional observations from a re-analysis of the deposited data

How the results depend on the processing

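No value has a replicate check within these libraries, and no replicate could be left out. No paired analysis was possible because each genotype has 1 library. *Nanos2* (80 reads over both libraries) and *Neurog3* depend most on the added constant. With a pseudocount of 0.1 or 0.01, 2 genes were higher by more than 1.5-fold in place of 0, and 1 gene was with RPKM rescaled to a sum of 1000000 in each library. With the germ cell list median set to 0, 2 genes were higher and 1 was lower past 1.5-fold, and the median of the 10 genes was 0.15 in place of −0.18. *Gfra1* and *Ret* changed sign there, and *Id4* with the Sertoli cell list. No other sign changed among the 10 genes under 9 alternatives, although *Zbtb16* (−0.05) and *Lin28a* (−0.02) were near 0 with the germ cell list. Over all genes, 251 lower and 233 higher became 457 and 454 with a pseudocount of 0.1, 485 and 491 with 0.01, 468 and 511 without the filter, 104 and 46 with a minimum mean RPKM of 5, and 69 and 1415 with the germ cell list. The counts were 356 lower and 434 higher with the rescaled sum, and 417 lower and 167 higher with the Sertoli cell list.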
